A study of Mus musculus with 12 samples.

Results

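Foxn1 and 9 further genes of the cortical T-lineage niche were followed in sorted thymic epithelial cells (TEC): Dll4, Il7, Kitl, Ly75, Tbata, Enpep, Cd83, Jag1 and Bmp4. They were taken by gene symbol, and all 10 were found among the 34547 genes with summed counts and in the table of normalised log2 values. Bulk polyA RNA sequencing had been done on 12 libraries in 4 groups of 3, namely cortical (cTEC) and medullary (mTEC) epithelium of wild-type (WT) C57BL/6 mice and of Aβ0/0 mice, labelled AB0. Aβ0/0 mice carry a disrupted H2-Ab1 gene in all cells, which encodes the beta chain of the MHC class II molecule I-A, so their CD4 T-cells are not selected on it. Each library came from a pool of 5 to 10 mice aged 4 to 6 weeks, from which EpCAM+CD45-Ly51+UEA1- cells were sorted as cTEC and EpCAM+CD45-Ly51-UEA1+ cells as mTEC. No treatment was given in any group. Ly51 is the protein of Enpep, so the higher Enpep level in cTEC follows from the sort and is given only as a description.

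FOXN1 is the transcription factor that directs epithelial cells of the thymus to differentiate and to attract and instruct T-cell precursors. Cortical epithelium displays the Notch ligand DLL4, which commits incoming progenitors to the T lineage, and supplies interleukin-7 and KIT ligand, which sustain early thymocytes. BMP4 is a growth factor that acts upstream of FOXN1 in the thymus.

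The comparison of groups rests on libraries of 21710319 to 36139815 estimated counts. H2-Ab1, the disrupted gene, was between 2469 and 3956 TPM (the abundance per transcript, corrected for its length and scaled to one total in every library) in the 6 Aβ0/0 libraries and between 9055 and 11966 TPM in the 6 WT libraries, without overlap in either subset. Its log2 fold change was -1.81 in mTEC, with an edgeR adjusted p of 0.0352, and -1.47 in cTEC, with an adjusted p of 0.695. Which part of the gene its remaining reads cover was not examined. The third WT cTEC library stood apart: among the 6 cTEC libraries it was lowest for 7 of the 10 genes, for 12 of 15 genes of a cortical programme list and for 13 of 17 thymocyte markers. Results that rest on it are given with and without it. Summed thymocyte marker levels ran from 283 to 741 TPM in WT cTEC, 832 to 942 in Aβ0/0 cTEC, 146 to 212 in WT mTEC and 42.7 to 175 in Aβ0/0 mTEC, although CD45+ cells had been gated out. Summed fibroblast markers were 1658 to 2550 TPM in WT cTEC and 1742 to 2448 in Aβ0/0 cTEC, against 115 to 166 and 145 to 267 in mTEC. Most of that sum was Dcn, and 5 of the 8 markers were called higher in WT cTEC. In bulk samples, fewer cells of a type and less RNA per cell cannot be told apart.

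Tbata was the most abundant of the 10 transcripts in every group, at 2921 ± 275 TPM in WT cTEC, 4421 ± 2420 in Aβ0/0 cTEC, 662 ± 54.5 in WT mTEC and 304 ± 89.0 in Aβ0/0 mTEC (mean ± SD, n = 3). In cTEC of both genotypes the order continued with Cd83, Il7, Foxn1, Ly75 and Kitl. The place of Cd83 rests on a retained-intron transcript: with protein-coding transcripts alone it averaged 34.4 TPM in WT cTEC and 51.5 in Aβ0/0 cTEC, below Il7, Foxn1 and Ly75. Dll4, Enpep, Jag1 and Bmp4 made up the lower end, with mean levels between 14.6 and 34.0 TPM. In cTEC, libraries did not overlap between Tbata and Cd83 or between Il7 and Foxn1. Most other neighbours did overlap, among them Cd83 and Il7, Foxn1 and Ly75, and Ly75 and Kitl. In mTEC Il7 and Foxn1 followed Tbata in both genotypes, each step without overlap. With protein-coding transcripts alone Tbata, Il7 and Foxn1 led in cTEC too (2856, 160 and 75.4 TPM in WT, 4301, 215 and 116 in Aβ0/0). With all transcripts, Cd83 was in the second place in cTEC, the fourth in WT mTEC and the sixth in Aβ0/0 mTEC. With protein-coding transcripts alone it averaged 2.96 TPM in WT mTEC and 0.723 in Aβ0/0 mTEC. The lowest level with all transcripts was that of Bmp4 in WT mTEC, 1.06 ± 0.724 TPM. In Aβ0/0 mTEC it was that of Dll4, 1.36 ± 1.42 TPM, which overlapped its neighbour Bmp4.

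**Figure D1:**
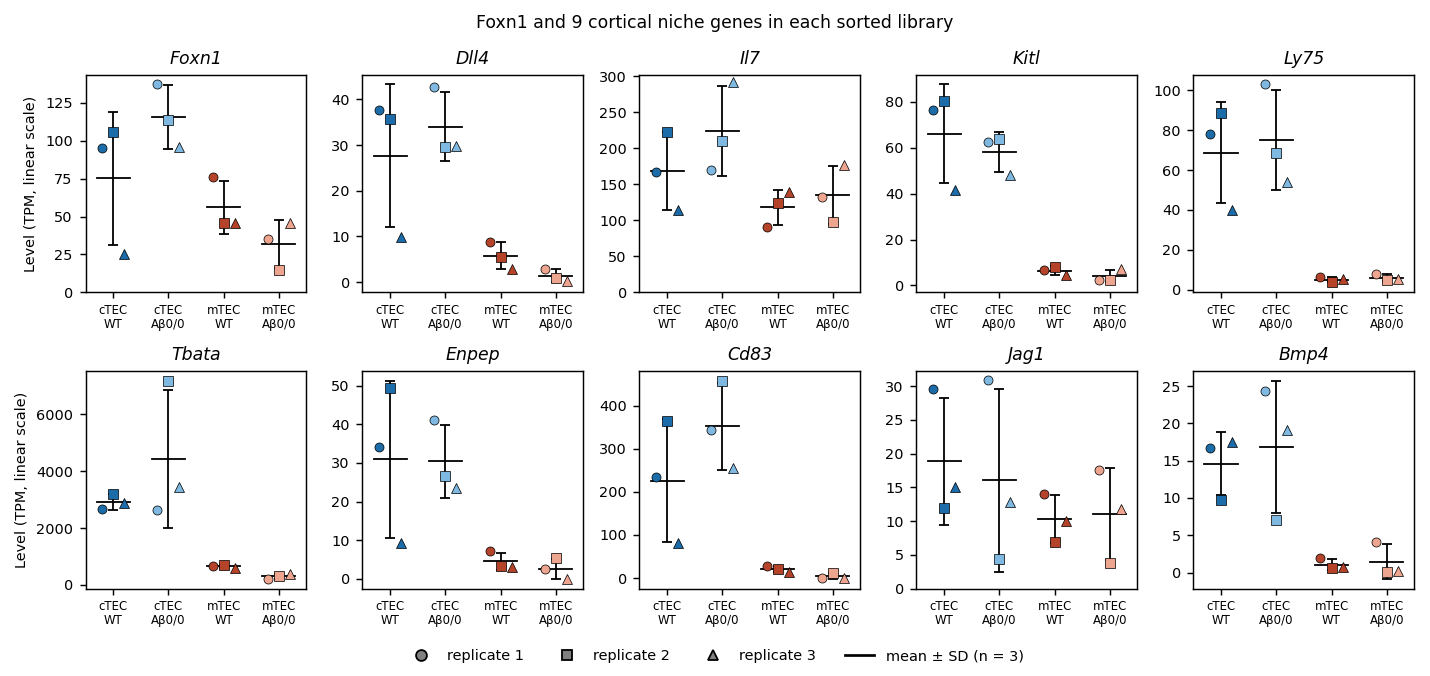
Level of each gene in TPM (vertical axes, linear) in the 12 libraries by group, with replicate numbers as symbols and bars for mean ± SD (n = 3). Kitl, Ly75, Tbata, Cd83, Dll4, Enpep and Bmp4 sit higher in every cTEC library than in any mTEC library of either genotype. The margin is narrow for Dll4 (9.78 against 8.80 TPM) and Enpep (9.27 against 7.11). The third WT cTEC library is the low triangle for Foxn1 (25.2 TPM), Dll4 and Enpep.

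The first question was how the cortical niche genes differed between the subsets. In WT mice 7 of the 10 were called higher in cTEC, and all 10 estimates were positive, with a median log2 fold change of 2.35 against -0.06 over all genes tested. Of the 18667 genes tested, 8.81% were called higher in cTEC (edgeR adjusted p under 0.05). Non-overlapping libraries with cTEC higher were seen in the same 7 genes and in 17.1% of all genes. Among Aβ0/0 libraries 6 of 10 were called, where 2.15% of 15687 genes were, and the median was 3.27 against -0.03 over all genes. There, 8 of 10 had all cTEC libraries above all mTEC libraries, against 12.9% of all genes. The 10 genes were chosen as cortical niche genes with earlier results of these data known. These counts therefore describe the list and do not test it. They also include Enpep, whose direction the sort fixed. Without it, 6 of 9 were called and 6 of 9 did not overlap in WT (median 2.04), and 6 and 7 of 9 in Aβ0/0 (median 3.22). Dll4, Kitl, Ly75, Tbata and Cd83 were called in both genotypes. These fits did not pair libraries of one sorting pool. With the pool as a block 7 were called in WT and 5 in Aβ0/0, where 3737 of 19861 and 599 of 17125 genes were. With limma on the rlog values Ly75 was the only one called in Aβ0/0. Il7 and Jag1 passed in neither. The Aβ0/0 count was less firm than the WT count: without a cTEC library it was 3, 2 and 3 (replicates 1, 2 and 3), and without an mTEC library 5, 2 and 4, whereas in WT it stayed between 6 and 8.

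**Figure D2:**
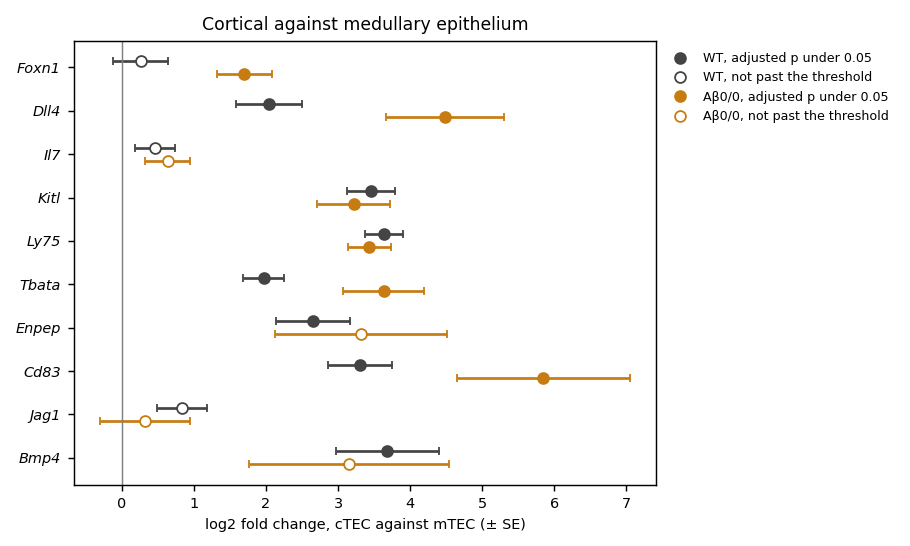
Log2 fold change of cTEC against mTEC (horizontal axis, ± SE) for each gene in WT (grey) and Aβ0/0 (orange), with filled points for an edgeR adjusted p under 0.05. Kitl and Ly75 lie between 3.22 and 3.64 in both genotypes, whereas Foxn1 moves from 0.26 in WT to 1.70 in Aβ0/0.

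Foxn1 was not restricted to the cortex. Its levels were 95.1, 106 and 25.2 TPM in the WT cTEC libraries and 76.3, 45.9 and 46.0 in WT mTEC. The first pair of cTEC libraries lay above every mTEC library and the third below all of them. The log2 fold change in WT was 0.26 ± 0.38 (SE), with an edgeR adjusted p of 0.666, and without the third cTEC library it was 0.61, with an adjusted p of 0.0514. In Aβ0/0 mice Foxn1 was at 138, 114 and 95.6 TPM in cTEC and at 35.0, 14.5 and 45.7 in mTEC, with no overlap. This difference of 1.70 ± 0.38 passed the edgeR test at an adjusted p of 0.0429. It did not pass with the sorting pool as a block (1.83, adjusted p = 0.0912), with a mean of at least 10 counts as the filter (0.0557), with protein-coding transcripts alone (0.0575) or with limma on the rlog values (0.256), and it passed in 1 of the 6 fits that left out a library, with adjusted p values between 0.0476 and 0.134. The gene lies on chr11:78357577-78386558 (mm10, minus strand), and a single 9-exon transcript represented it.

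Dll4, the Notch ligand that Foxn1-expressing epithelium presents to T-cell progenitors, was a cortical transcript at modest level. WT cTEC libraries held 37.7, 35.7 and 9.78 TPM, and WT mTEC libraries 8.80, 5.55 and 2.94. The lowest cTEC library was thus only just above the highest mTEC library. The log2 fold change was 2.04 ± 0.46 (edgeR adjusted p = 0.0128), and 2.36 without the third cTEC library (adjusted p = 0.00232). Without the second WT mTEC library the adjusted p was 0.0523, in 1 fit over all 12 libraries 0.0615 and with limma on the rlog values 0.148. In Aβ0/0 mice Dll4 was at 42.7, 29.5 and 29.7 TPM in cTEC, against 2.95, 0.917 and 0.206 in mTEC. Here the groups were far apart, and the log2 fold change was 4.48 ± 0.82 (edgeR adjusted p = 0.0244). Leaving out a library gave log2 fold changes between 3.99 and 5.52 and adjusted p values between 0.0187 and 0.0891. Of 6 such fits 2 passed. Dll4 is on chr2:119325784-119335962 (plus strand).

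Jag1, a Notch ligand of the other structural class, overlapped between the subsets. Its levels were 29.6, 11.96 and 15.1 TPM in WT cTEC and 14.0, 6.88 and 10.1 in WT mTEC, and 30.8, 4.43 and 12.9 in Aβ0/0 cTEC against 17.5, 3.86 and 11.8 in Aβ0/0 mTEC. The groups overlapped in both genotypes, with log2 fold changes of 0.83 ± 0.35 (edgeR adjusted p = 0.125) and 0.32 ± 0.63 (adjusted p = 0.849). Within pairs of cTEC and mTEC libraries of the same genotype and number, Jag1 was higher in cTEC on the TPM scale in 6 of 6. The same held for Dll4, Kitl, Ly75, Tbata, Enpep, Cd83 and Bmp4, and it was 5 of 6 for Foxn1 and Il7. No such count was made over all genes. On the rlog scale the third Aβ0/0 pair of Jag1 went the other way (10.52 in cTEC and 10.58 in mTEC). With the number as a block the WT value of Jag1 was 0.77 (edgeR adjusted p = 0.0607). In WT the test passed without the second cTEC library, at 1.13 and an adjusted p of 0.0240. Replicate 1 was the highest library for Jag1 in all 4 groups. The same was true of Dll4, and of 9.13% of the 19461 genes tested over all libraries, whereas 0.745% were highest in replicate 2 and 1.21% in replicate 3 of every group. The study's list of cell yields sets both genotypes under each replicate number, so a number may mark a shared round of sorting, which the labels do not state.

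The Notch list held 29 further ligands, receptors, processing enzymes, coactivators and target genes, of which 28 were tested in each genotype. In WT, 7 were called higher in cTEC, where 8.81% of all genes were, and 3 higher in mTEC, where 18.0% of all genes were. The median log2 fold change was -0.08 against -0.06 over all genes. Between the Aβ0/0 subsets 1 was called in each direction, where 2.15% of all genes were called higher in cTEC and 3.45% higher in mTEC. DESeq2 called 8 higher and 5 lower in WT cTEC, and 4 and 3 in Aβ0/0 cTEC. Over all genes it called 2158 of 18667 higher and 4137 lower in WT cTEC, and 824 and 1218 of 15687 in Aβ0/0 cTEC. Jag2, a further Notch ligand, rose from 34.2, 16.0 and 23.3 TPM in WT mTEC to 272, 167 and 68.3 in WT cTEC (log2 fold change 2.49, edgeR adjusted p = 0.00146). The opposite direction was that of Dll3, a divergent Delta-like gene, with 15.8, 13.8 and 14.6 TPM in WT mTEC and at most 0.791 in WT cTEC (adjusted p = 0.000782). Dll3 also passed in Aβ0/0 mice (adjusted p = 0.0065), where mTEC held 18.1 to 32.9 TPM. Dlk1, a non-canonical ligand, was at 15.0 to 32.5 TPM in WT mTEC and at most 0.263 in WT cTEC (adjusted p = 0.00163). Mfng, a glycosyltransferase that modifies Notch, was also higher in WT mTEC (-3.38, adjusted p = 0.00583). Hey1, a Notch target gene, was called higher in cTEC of Aβ0/0 mice (2.00, adjusted p = 0.0147). Dll1 was outside the naming rule and is given, after its values were seen, to complete the ligands: it was called higher in WT cTEC at 2.19 (adjusted p = 0.00364). Jag2 and the receptor genes Notch1 and Notch2, the latter pair likewise named after inspection, were the 3 genes of the list that were highest in replicate 1 of every group.

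**Figure D3:**
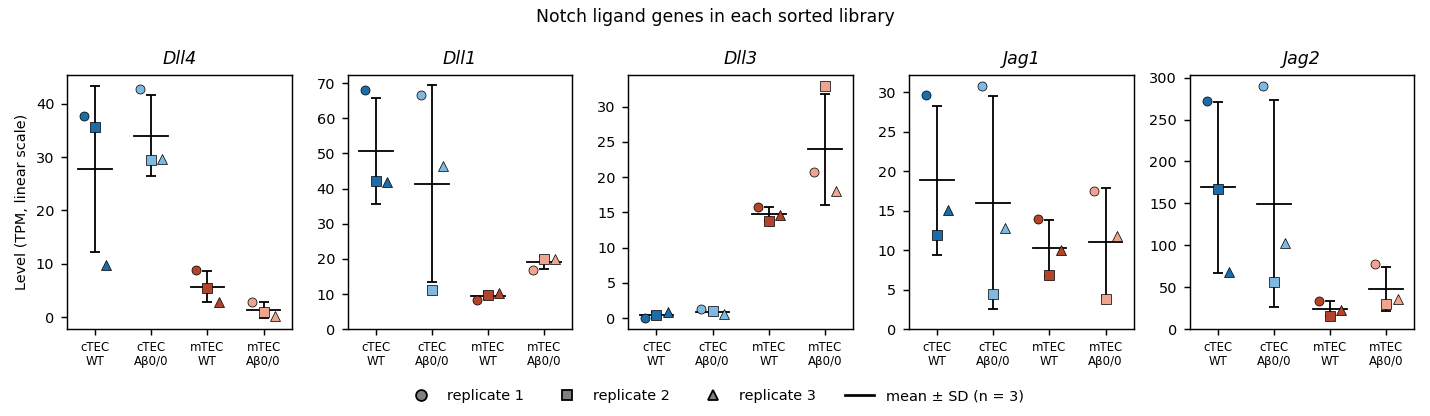
Levels in TPM (linear axes) of the Notch ligand genes Dll4, Dll1, Dll3, Jag1 and Jag2 in the 12 libraries, symbols for replicate numbers, bars for mean ± SD (n = 3). Dll4 is low in every mTEC library (8.80 TPM or less), Dll3 is at most 1.30 TPM in cTEC, and the circles of replicate 1 are the highest points of Dll4, Jag1 and Jag2 in each group.

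Il7, the cytokine that sustains developing thymocytes, was abundant in both subsets, and no difference between them was called. WT cTEC held 167, 223 and 115 TPM and WT mTEC 90.5, 124 and 139, with a log2 fold change of 0.45 ± 0.28 (edgeR adjusted p = 0.283). Aβ0/0 cTEC held 169, 210 and 292 TPM and Aβ0/0 mTEC 132, 97.2 and 176, with a log2 fold change of 0.64 ± 0.31 (adjusted p = 0.348). The libraries overlapped in both genotypes. The gene is on chr3:7569994-7613760 (minus strand).

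The shares of single transcripts in the Il7 signal were compared as well, and no share comparison passed after adjustment. Transcript Il7-201 took 59.2, 66.8 and 66.1% of the Il7 counts in WT cTEC and 42.8, 47.3 and 46.4% in WT mTEC. In Aβ0/0 mice it took 61.5, 67.3 and 62.6% in cTEC and 42.5, 46.7 and 33.0% in mTEC. No cTEC library overlapped an mTEC library, and the means differed by 18.5 percentage points in WT and 23.1 in Aβ0/0. The two-sided exact permutation test of 3 against 3 gave p = 0.1 for each, the smallest it can give. After adjustment over the 76 share comparisons made for the 10 genes, the smallest p was 0.507, and 15 of the 76 (19.7%) had groups that did not overlap. Il7-201 starts from an exon at chr3:7605825-7605864, inside the first intron of the longer transcripts. It has 339 coding bases, as have Il7-203 and Il7-204, against 462 in Il7-205. Il7-203, which starts at the upstream exon ending at position 7613760, held 18.7% in WT cTEC and 32.3% in WT mTEC, without overlap, and 21.9% in Aβ0/0 cTEC and 32.8% in Aβ0/0 mTEC, where the libraries overlapped. Il7-201 and Il7-203 differ at the far end too, with last exons of 1920 and 766 bases, so the shares depend on reads over that exon as well as on the first one.

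Kitl, the ligand of the receptor KIT on progenitors, was clearly a cortical transcript in both genotypes. WT cTEC libraries held 76.5, 80.5 and 41.4 TPM against 6.62, 8.26 and 4.66 in WT mTEC. Aβ0/0 cTEC held 62.6, 63.9 and 48.2 TPM against 2.58, 2.36 and 7.19. Every cTEC library was several times above every mTEC library. The log2 fold changes were 3.46 ± 0.33 in WT (edgeR adjusted p = 0.000595) and 3.22 ± 0.51 in Aβ0/0 (adjusted p = 0.0142), the latter with an adjusted p of 0.0537 without the second cTEC library and 0.0564 without the second mTEC library. Kit itself, its receptor gene, had levels of 28.6, 11.05 and 11.4 TPM in WT mTEC and 2.59, 2.73 and 1.55 in WT cTEC, and was called lower in cTEC (-2.58, adjusted p = 0.00478).

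KIT ligand is made in a form that is readily cleaved to a soluble factor and a form that stays on the membrane, which differ by a coding exon that carries the main cleavage site. That exon is number 6 of transcript Kitl-202, on chr10:100080857-100080940 (mm10, plus strand), 84 bases or 28 codons, and it is absent from Kitl-201. It is shown because it is the coding difference between the forms, and it reads, in mouse reference sequence,
Kitl exon 6: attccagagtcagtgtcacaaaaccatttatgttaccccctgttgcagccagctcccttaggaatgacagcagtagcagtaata
Kitl-202, with the exon, took 72.9, 71.9 and 96.6% of Kitl counts in WT cTEC, 79.1, 74.3 and 74.8% in Aβ0/0 cTEC, 71.3, 71.1 and 78.2% in WT mTEC and 74.7 and 80.9% in the first and the third Aβ0/0 mTEC library, the second having all of its 373 Kitl counts there. As shares of TPM, which correct for the length of 5648 bases against 1260, Kitl-202 took 28.8, 33.1 and 78.3% in WT cTEC and Kitl-201 41.4, 49.6 and 5.07%. By TPM Kitl-201 was thus the larger of the pair in the first and the second of these libraries, so which form leads depends on the length correction. The groups overlapped in all 4 comparisons of count shares. The high value in WT cTEC was that of the third library, the one that stood apart. Kitl-202 also has the longer last exon, 4399 bases against 381, so that reads in the long tail could be assigned to few other transcripts.

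Bmp4, the growth factor upstream of Foxn1, was a low cortical transcript. WT cTEC libraries held 16.7, 9.77 and 17.4 TPM and WT mTEC 1.89, 0.598 and 0.682. The groups were well separated, with a log2 fold change of 3.68 ± 0.72 (edgeR adjusted p = 0.00781, and 0.0610 in 1 fit over all 12 libraries). Aβ0/0 cTEC held 24.3, 7.08 and 19.1 TPM against 4.13, 0.117 and 0.155 in mTEC, where the last pair of libraries rested on 6 and 7 estimated counts. These did not overlap either, but the log2 fold change of 3.15 ± 1.38 did not pass (adjusted p = 0.288). Without the first Aβ0/0 mTEC library it was 6.24, with an adjusted p of 0.0385.

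Of the 25 further genes of the BMP pathway, 6 were called higher in cTEC and 3 higher in mTEC in WT mice (8.81% and 18.0% of all genes), with a median log2 fold change of 0.19 against -0.06 over all genes. Between the Aβ0/0 subsets 1 of 23 was called, higher in cTEC (2.15% of all genes). DESeq2 called 7 higher and 3 lower in WT cTEC, and 4 and 2 in Aβ0/0 cTEC. Its calls over all genes are those given beside the Notch list. Twsg1, an extracellular BMP-binding protein, was called in both genotypes, at 2.21 in WT (edgeR adjusted p = 0.0022) and 1.31 in Aβ0/0 (adjusted p = 0.0264). Bmp2, another ligand, went the other way in WT, with 15.4, 10.7 and 9.18 TPM in mTEC and 1.58, 1.78 and 1.44 in cTEC (-2.92, adjusted p = 0.000955). Grem1, a secreted BMP antagonist, was at 3.74 to 5.33 TPM in WT mTEC and rested on 2 or 3 counts a library in WT cTEC (adjusted p = 0.000409). Bmp5 passed as higher in WT mTEC (adjusted p = 0.0484), but stayed under 1 TPM in every library of both WT groups.

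Ly75, which encodes the endocytic receptor DEC-205 of cortical epithelium and dendritic cells, differed between subsets by about the same amount in both genotypes. Its levels were 77.9, 88.4 and 40.0 TPM in WT cTEC and 6.31, 3.64 and 5.14 in WT mTEC, and 103, 68.5 and 54.0 in Aβ0/0 cTEC against 8.06, 4.81 and 5.16 in Aβ0/0 mTEC. Log2 fold changes were 3.64 ± 0.26 in WT (edgeR adjusted p = 0.000251) and 3.43 ± 0.30 in Aβ0/0 (adjusted p = 0.00219). Ly75 passed in all 6 fits that left out a library in each genotype. Dendritic cells also express it. Of 10 dendritic, macrophage and B cell markers, 8 were under 1 TPM in every WT cTEC library and 7 in every Aβ0/0 cTEC library. The summed level of the list was 35.0 to 354 TPM in WT cTEC, mostly Lyz2, and 7.80 to 42.9 in Aβ0/0 cTEC, against 602 to 655 in WT mTEC and 108 to 743 in Aβ0/0 mTEC.

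Enpep, the sort marker, was at 34.1, 49.5 and 9.27 TPM in WT cTEC and 7.11, 3.39 and 3.00 in WT mTEC. The Aβ0/0 libraries held 41.1, 26.5 and 23.5 TPM in cTEC and 2.42, 5.25 and 0.0434 in mTEC. Libraries did not overlap in either genotype. The third WT cTEC library was again the lowest, close to the highest WT mTEC library. The log2 fold changes, 2.65 ± 0.51 in WT (edgeR adjusted p = 0.00774) and 3.31 ± 1.19 in Aβ0/0 (adjusted p = 0.187), describe the sort. DESeq2 gave 3.32 in Aβ0/0 with an adjusted p of 0.00783.

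Cd83, whose protein stabilises MHC class II on the surface of cortical epithelium and dendritic cells, was prominent in cTEC. WT cTEC libraries held 234, 364 and 80.7 TPM and WT mTEC 27.9, 20.1 and 13.5. The Aβ0/0 cTEC libraries held 343, 458 and 256 TPM and Aβ0/0 mTEC 1.13, 12.4 and 0.865, so that the second mTEC library was far above its companions. Log2 fold changes were 3.30 ± 0.45 in WT (edgeR adjusted p = 0.0022) and 5.85 ± 1.20 in Aβ0/0 (adjusted p = 0.0351), and the latter passed in 1 of 6 fits that left out a library (adjusted p between 0.00442 and 0.0993). Without the second Aβ0/0 mTEC library it was 8.41, and the other 5 fits gave 5.36 to 6.10. Cd83-202, annotated as a retained-intron transcript, took 83.6% of Cd83 counts in WT cTEC, 83.2% in Aβ0/0 cTEC and 83.8% in WT mTEC. In Aβ0/0 mTEC it took 83.9% in the second library, 48.6% in the third and all of the 43 counts in the first. Counting protein-coding transcripts alone lowered the mean level from 226 to 34.4 TPM in WT cTEC and from 20.5 to 2.96 in WT mTEC. The difference between them was 3.33 by those counts (adjusted p = 0.00536). For Aβ0/0 the same counts gave 5.69 with an adjusted p of 0.0610.

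Tbata, a thymus- and testis-enriched gene whose protein restrains proliferation of thymic epithelium, exceeded all the others. WT cTEC libraries held 2667, 3213 and 2882 TPM, WT mTEC libraries 664, 715 and 606. Aβ0/0 cTEC held 2646, 7178 and 3438 TPM, the second library standing well above the rest, and Aβ0/0 mTEC 212, 309 and 390. The subsets were clearly apart in both genotypes, by 1.97 ± 0.28 in WT (edgeR adjusted p = 0.00272) and 3.63 ± 0.56 in Aβ0/0 (adjusted p = 0.0135). In Aβ0/0 the value was 2.91 without the second cTEC library, the high one (edgeR adjusted p = 0.0188). The adjusted p was 0.0542 without the second and 0.0519 without the third Aβ0/0 mTEC library. Transcript Tbata-201, with 10 exons and 1179 coding bases, took 5.04, 4.57 and 4.43% of Tbata counts in WT cTEC and 15.9, 15.7 and 15.2% in WT mTEC. Shares in Aβ0/0 were 4.84, 5.48 and 6.55% in cTEC and 14.2, 12.8 and 12.7% in mTEC. Subsets did not overlap in either genotype (exact permutation p = 0.1 for each, the smallest possible, and 0.507 adjusted), as in 19.7% of the share comparisons. Most of the remainder was in Tbata-209, a 4-exon transcript with 306 coding bases that ends at chr10:61180680, with 57.8% in WT cTEC and 48.8% in WT mTEC.

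**Figure D4:**
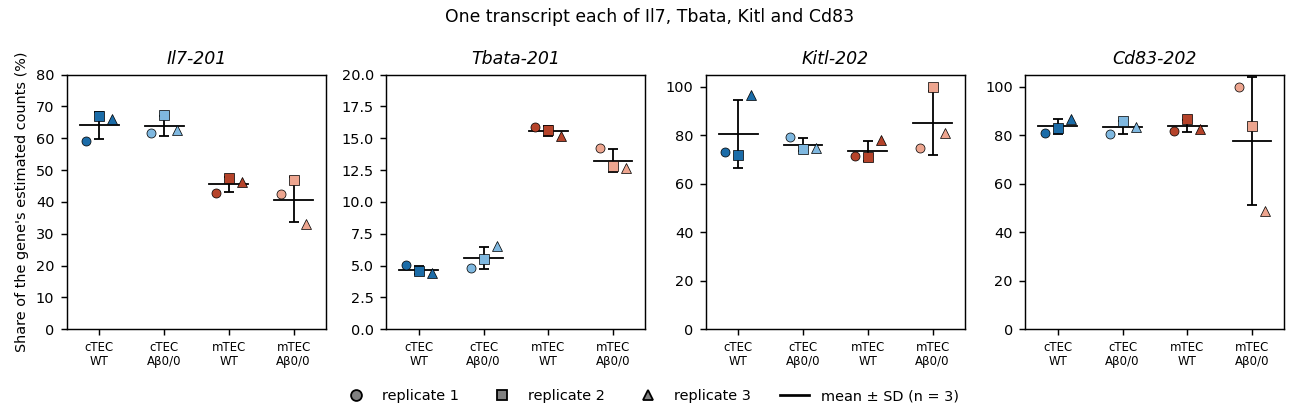
Share of the gene's estimated counts (vertical axes, %, from 0) held by Il7-201, Tbata-201, Kitl-202 and Cd83-202 in each library, with bars for mean ± SD (n = 3). Il7-201 is higher in all cTEC libraries (59.2% or more) than in all mTEC libraries (47.3% or less), Tbata-201 is lower in all cTEC libraries, and Kitl-202 and Cd83-202 overlap between groups.

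Other genes of the cortex and niche were counted from lists, which were also chosen with earlier results of these data known. Of 15 genes of the cortical programme, 11 were called higher in cTEC in WT and 7 in Aβ0/0, none lower, with medians of 1.25 and 1.04 against -0.06 and -0.03 over all genes. Of all genes 8.81% and 2.15% were called higher in cTEC in WT and Aβ0/0, and 18.0% and 3.45% higher in mTEC, which also holds beside the lists that follow. The thymus-specific serine protease gene Prss16 differed by 4.93 in WT (edgeR adjusted p = 0.000251) and 5.12 in Aβ0/0 (adjusted p = 0.00364). Psmb11, the thymoproteasome subunit, differed by 4.36 (adjusted p = 0.000398) and 5.19 (adjusted p = 0.00373), and Ackr4, a scavenging chemokine receptor, by 5.37 (adjusted p = 0.000122) and 4.51 (adjusted p = 0.00137). The transcription factor gene Pax1 differed by 2.46 and 2.47. Among 10 other niche ligands, 3 were called higher in cTEC and 4 higher in mTEC in WT, and 2 in each direction in Aβ0/0. Cxcl12, which draws and retains early thymocytes, was higher in cTEC by 4.40 (adjusted p = 0.000468) in WT and 3.71 (adjusted p = 0.00685) in Aβ0/0, and Ccl25, a chemokine for progenitors, by 1.88 (adjusted p = 0.00295) and 4.07 (adjusted p = 0.0065). Ccl19, a medullary chemokine, was lower in cTEC by -3.66 and -4.20, as was Ccl21a by -3.20 and -3.37, a gene with near-identical copies whose reads may be shared.

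Markers of other cells moved with the subset as well, to be read against the same shares of all genes. Of 9 medullary markers 6 were called lower in cTEC in each genotype, among them Aire, which averaged 381 TPM in WT mTEC and 4.18 in WT cTEC, and 77.3 and 0.543 TPM in the Aβ0/0 groups. Of 17 thymocyte markers, edgeR called 10 higher and 1 lower in WT cTEC and 4 higher in Aβ0/0 cTEC. DESeq2 called 11 higher and 1 lower in WT and 10 higher in Aβ0/0. Over all genes DESeq2 called 2158 of 18667 higher and 4137 lower in WT cTEC, and 824 and 1218 of 15687 in Aβ0/0 cTEC. Rag1 differed by 2.50 in WT (edgeR adjusted p = 0.00727) and Cd8b1 by 2.19 in WT and 3.27 in Aβ0/0. Of 8 fibroblast markers, 5 were called higher in WT cTEC and 3 in Aβ0/0 cTEC, with Dcn at 4.07 and 3.24. Of 7 endothelial markers 1, Kdr, was called by edgeR in WT cTEC (3.49, at 2.00 TPM on average), where DESeq2 called 3, and none of the 5 tested in Aβ0/0 cTEC by edgeR or DESeq2, where none had an unadjusted p under 0.05. Of 4 epithelial markers, none was called higher in cTEC, and 2 in WT and 1 in Aβ0/0 were called lower. Of 10 dendritic, macrophage and B cell markers, 4 were called lower in WT cTEC, among them Lyz2 (-2.17). Their part in the differences of the 10 niche genes was not tested.

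The second question was whether loss of MHC class II changed the niche genes. In cTEC it was not detectable: none of the 10 was called, against 3 of 15432 genes (0.0194%), and none had an unadjusted p under 0.05 by edgeR, where 2.16% of all genes had. DESeq2 and every other setting tried also called none of them. WT and Aβ0/0 libraries overlapped for all 10 genes, while 7.83% of all genes did not overlap. The estimates ran from -0.43 (Jag1) to 0.72 (Cd83), with a median of 0.22 against -0.06 over all genes. Foxn1 was 0.66 ± 0.38 higher in Aβ0/0 cTEC, and 0.33 without the third WT library. Cd83 was 0.72 ± 0.44 higher, and 0.40 without that library. Dll4 was 0.35 ± 0.36 higher, and 0.05 without it. The Tbata estimate of 0.60 ± 0.48 was -0.13 without the second Aβ0/0 library, the one with the high level. EdgeR called no gene of the lists here. An unadjusted edgeR p under 0.05 was seen in 4 of 16 thymocyte and 2 of 8 fibroblast markers, against 2.16% of all genes. So had 1 of 8 medullary, 1 of 4 dendritic, macrophage and B cell and 1 of 7 endothelial markers. DESeq2 called 1 thymocyte marker higher and 2 fibroblast markers lower in Aβ0/0 cTEC, and 61 of 15432 genes. Their part in the estimates was not tested.

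In mTEC, 6 of the 10 genes had estimates below 0 for Aβ0/0 against WT, among them Kitl at only -0.044. None was called by edgeR, where 5.66% of 18636 genes were. Of the 10, 1 (Tbata) had an unadjusted p under 0.05, as had 15.3% of all genes. The median was -0.34 against -0.0026 over all genes, where negative and positive estimates were thus about equally common. Of those genes 63 were called higher and 991 lower in Aβ0/0, but no gene was called without any 1 of the 3 WT libraries, and 2377, 83 and 13 without Aβ0/0 replicates 1, 2 and 3. With the replicate number as a block, edgeR called 0 genes, although 3455 of 19854 had an unadjusted p under 0.05. For Dll4 and Tbata all 3 Aβ0/0 libraries lay below all 3 WT libraries, which was so for 18.2% of all genes. Dll4 was at 0.206 to 2.95 TPM in Aβ0/0 and 2.94 to 8.80 in WT, where the highest Aβ0/0 and the lowest WT library met. On the scale of the test, normalised counts, they did not overlap. The log2 fold change was -2.04 ± 0.92 (edgeR adjusted p = 0.362). It was -3.03 without the first Aβ0/0 library and -1.53 without the third (adjusted p = 0.0922 and 0.286). Tbata levels of 212 to 390 TPM compared with 606 to 715 in WT, a log2 fold change of -1.01 ± 0.29 (adjusted p = 0.132). DESeq2 called it at -1.03 (adjusted p = 0.0134), and edgeR called it without the first Aβ0/0 library, at -0.75 (adjusted p = 0.0470). Foxn1 was -0.73 ± 0.37 (adjusted p = 0.438), with libraries that just met at 45.7 TPM in Aβ0/0 and 45.9 in WT on the TPM scale and overlapped on the scale of the test. Cd83 was -1.79 ± 1.08 (adjusted p = 0.538). Without the second Aβ0/0 library, the high one, it was -4.34 (adjusted p = 0.0413). The remaining 6 genes had estimates between -0.63 (Enpep) and 0.54 (Bmp4), and both of these rested on single libraries. Bmp4 was -2.50 without the first Aβ0/0 library (adjusted p = 0.176). Enpep was -2.02 without the second Aβ0/0 library, -0.051 without the third and -0.19 without the first WT library.

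Beside the niche genes in mTEC, Ccl25 was the 1 of 10 other niche ligands that edgeR called (DESeq2 called 1 higher and 1 lower): it was at 270, 141 and 213 TPM in Aβ0/0 and 509, 645 and 497 in WT (-1.35, edgeR adjusted p = 0.0352). No gene of the cortical programme and none of the Notch list was called in mTEC by edgeR, where 7 of 15 and 4 of 28 had an unadjusted p under 0.05, against 15.3% of all genes. DESeq2 called 3 of the former, 2 of them higher and 1 lower, and 1 of the latter, higher. Over all 18636 genes DESeq2 called 427 higher and 1355 lower, which also holds beside its other counts here. In the BMP list edgeR called Twsg1 alone, higher in Aβ0/0 (0.89, adjusted p = 0.0352), and DESeq2 called 4 higher and 1 lower. Aire, the regulator of tissue-restricted antigens, and Cd86, a costimulatory molecule of mature mTEC, were the medullary markers called, both lower in Aβ0/0. Aire averaged 77.3 against 381 TPM in WT (-2.17, adjusted p = 0.0352) and Cd86 0.379 against 11.4 TPM (adjusted p = 0.0363). Adgre1 and Itgax, markers of macrophages and dendritic cells, were called lower (adjusted p = 0.0352 and 0.0397), with no counts in the Aβ0/0 mTEC libraries. All of these edgeR calls were lost when any WT library was left out and with the replicate block. The share of mature mTEC and the expression per cell cannot be told apart here.

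**Figure D5:**
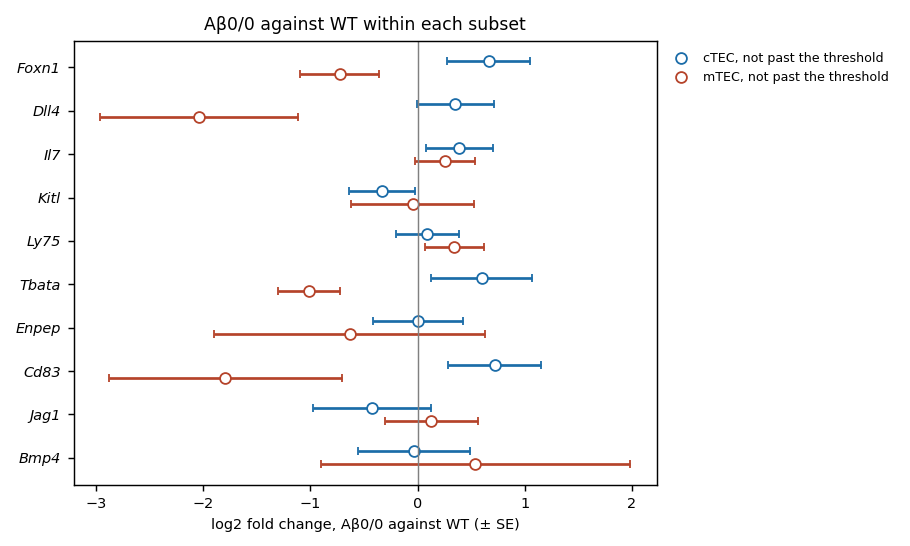
Log2 fold change of Aβ0/0 against WT (horizontal axis, ± SE) for each gene in cTEC (blue) and mTEC (red), all points open because none passed an edgeR adjusted p of 0.05. Foxn1, Dll4, Tbata and Cd83 lie right of 0 in cTEC (0.35 to 0.72) and left of 0 in mTEC (-2.04 to -0.73).

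The third question was whether the genotype effect differed between subsets, which was tested as an interaction over all 12 libraries. None of the 10 genes passed with edgeR or with DESeq2, where 2 of 19461 genes did with edgeR (0.0103%). At an unadjusted p under 0.05 there were 3 of the 10, against 6.90% of all genes. These were Foxn1, with an effect in cTEC that exceeded that in mTEC by 1.43 ± 0.57 on the log2 scale (edgeR adjusted p = 0.625), Dll4 by 2.44 ± 0.93 (adjusted p = 0.593) and Tbata by 1.65 ± 0.63 (adjusted p = 0.593). Without the third WT cTEC library the Foxn1 value was 1.09 and the Dll4 value 2.14. The Cd83 value was 2.52 ± 1.22 (edgeR adjusted p = 0.743), and without the second Aβ0/0 mTEC library it was 5.10 (adjusted p = 0.0432). Il7, Kitl and Ly75 had values of 0.18, -0.25 and -0.21. A subset difference that passed in Aβ0/0 and not in WT, as for Foxn1, was therefore not shown to differ between genotypes.

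Promoter sequence was examined because most of these genes were higher in cTEC together and FOXN1 binds DNA at sites with the core ACGC. RefSeq promoter windows on GRCm38.p6 were at hand for 8 of the 10 genes, Il7 and Cd83 being the exceptions. The 5 letters GACGC, which contain that core, were searched on both strands of the 250 bases before the start. They occurred in 3 of the 8 windows and in 22.6% of 32851 windows of all genes, and the core ACGC alone in 5 of 8 and in 49.8%. The matches are shown with up to 12 bases on either side, 5′ to 3′ on the strand of the gene, with the motif (or its complement GCGTC, for Jag1) in capitals:
Kitl: acccagacagggGACGCaccaggctcgat
Enpep: caggcctggggaGACGCtgt
Jag1: ccaggcgggcacGCGTCattgtgttacct
The Kitl match begins 183 bases before the start (chr10:100015626-100015654, plus strand), the Enpep match 8 bases before it (chr3:129332750-129332769, minus strand) and the Jag1 match 168 bases before it (chr2:137116672-137116700, minus strand). Kitl and Enpep were among the genes with all cTEC libraries above all mTEC libraries, and Jag1 was not. The RefSeq start of Kitl lies downstream of the first base of Kitl-202 (chr10:100015630), so the Kitl match falls within the first exon of that transcript. Dll4, Ly75, Tbata and Bmp4, which also were, had no match in this window.

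The genes whose pattern over the 12 libraries was most like that of Foxn1 were looked for among 18978 genes by the root mean square difference of centred, normalised log2 values, as a description without a test. They were Rbm18 (0.283), Lmo3 (0.298), Mcm4 (0.300), Lrch1 (0.316) and Ralb (0.318). The nearest of the other 9 niche genes was Il7, at 0.632 and position 2175, and Cd83 was the farthest, at 2.14 and position 18609. For Dll4 they were Selenbp1 (0.450), the thymocyte recombinase gene Rag1 (0.474), Ackr3 (0.505), Cth (0.510) and Mxra8 (0.541). Enpep was the niche gene nearest to Dll4, at 0.660 and position 17, and Foxn1 itself came at 1.28 and position 751. Rag1 levels were 10.3, 7.89 and 2.04 TPM in WT cTEC and 1.08, 0.863 and 1.18 in WT mTEC, so the third WT cTEC library was the lowest of the cTEC libraries for both Dll4 and Rag1.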

How the data were processed

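cTEC and mTEC of WT and Aβ0/0 mice (3 pools each) were sequenced after SMART-Seq v4 amplification. Per the labels, reads were handled with bcl2fastq 2.20.0, Trim Galore, kallisto 0.43 and DESeq2 on mm10. The deposited files hold kallisto estimated counts and TPM for 109282 transcripts per library, and the authors' table of rlog values, which are on a log2 scale. Estimated counts and TPM were summed per gene with GENCODE vM21 (1295 transcripts without a match, at most 0.512% of counts), and counts were rounded. TPM were used for levels. Comparisons used edgeR 4.0.16 (quasi-likelihood test, robust, TMM factors, filterByExpr) in R 4.3.3 on the libraries of each comparison, with Benjamini-Hochberg adjustment over all genes tested and a threshold of 0.05. Transcript shares were compared by two-sided exact permutation tests, over transcripts with a mean share of at least 5%. Estimated counts split reads between transcripts by model, so shares of overlapping transcripts carry that uncertainty. The libraries carry no molecular identifiers, so reads are not independent molecules.

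Alternatives were DESeq2 1.42.0, RLE size factors, no filter or a mean of at least 10 counts, length-scaled counts, protein-coding transcripts only, limma 3.58.1 on the rlog values, 1 fit over 12 libraries, a replicate block and leaving out each library. DESeq2 is the study's own test. cTEC and mTEC with the same genotype and number were taken to come from the same sorting pool, from the study's list of cell yields. The main subset fits carried no block and so did not use this pairing. The number was a block only in the alternative fit named replicate block. Correlations of the deviations of such paired libraries were 0.219, 0.0381 and 0.0822 in WT and 0.240, 0.0912 and 0.0546 in Aβ0/0. Members and gene lists were chosen with earlier results of these data known. Named beyond the 10 genes were up to 4 genes per list and comparison with the largest change past the threshold, H2-Ab1, and the 5 genes most like Foxn1 and Dll4. Scripts were tested on simulated data.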

Additional observations from a re-analysis of the deposited data

Results flagged for a closer look

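For 3 of the 10 genes the edgeR interaction test had an unadjusted p under 0.05, as had 6.90% of all genes. None passed after adjustment over all genes. The estimated effect of Aβ0/0 in cTEC exceeded that in mTEC by 1.43 on the log2 scale for Foxn1, by 2.44 for Dll4 and by 1.65 for Tbata. Without the third WT cTEC library, the one that stood apart, the Foxn1 value was 1.09 and the Dll4 value 2.14. Over 20 alternatives the Foxn1 value ran from 1.09 to 1.83, with adjusted p values between 0.315 and 1.00. The Dll4 value ran from 1.94 to 3.45 (adjusted p between 0.203 and 1.00) and that of Tbata from 0.92 to 2.02 (adjusted p between 0.159 and 0.979).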

How the results depend on the processing

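The number of the 10 genes past the threshold was 0 in cTEC for genotype under every alternative. For genotype in mTEC it was 0, and 1 with DESeq2 and between 0 and 1 when a library was left out. For the subset in WT it was 7, 5 with limma on the rlog values and 4 with 1 fit over all 12 libraries (Kitl, Ly75, Tbata and Cd83 passed). Calls over all genes in these fits were 4997, 3392 and 2760. When a library was left out it was between 6 and 8. For the subset in Aβ0/0 it was 6, and 7 with DESeq2. It was 5 with a mean of at least 10 counts, 4 with protein-coding transcripts only and 1 with limma on the rlog values (Ly75). Calls over all genes in these fits were 878, 2042, 644, 566 and 168. When a library was left out the Aβ0/0 number was between 2 and 5. The interaction gave 0, and between 0 and 1 when a library was left out. With the replicate block the counts were 0, 0, 7, 5 and 0, and Foxn1 in Aβ0/0 was the call lost. Over all genes the block gave 0 calls for genotype in cTEC, genotype in mTEC and the interaction. WT and Aβ0/0 libraries of one number, which the study's list of cell yields sets together, had correlations between -0.0391 and 0.245.

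No estimate that changed sign was a call. For genotype in cTEC, Bmp4 became 0.00077 with DESeq2, 0.00069 with RLE size factors, 0.039 without a filter and 0.032 with limma, and Enpep -0.0015 with length-scaled counts. When a library was left out, ranges were -0.39 to 0.23 for Bmp4, -0.35 to 0.50 for Enpep, -0.053 to 0.29 for Ly75 and -0.13 to 0.93 for Tbata. For genotype in mTEC, Kitl became 0.010 with protein-coding transcripts only and Jag1 -0.060 with limma. Bmp4 became -0.19 with limma and -0.71 with the replicate block. When a library was left out, the ranges were -0.50 to 0.32 for Kitl, -0.17 to 0.48 for Jag1 and -2.50 to 1.37 for Bmp4. Over all alternatives the Kitl value ran from -0.67 to 0.32. For the subset in Aβ0/0, Jag1 ran from -0.35 to 0.74. For the interaction, Kitl became 0.47 with length-scaled counts and 0.53 with limma, and Bmp4 0.22 with limma and 0.78 with the replicate block, and the ranges were -0.015 to 0.43 for Il7, -0.57 to 0.20 for Kitl and -1.33 to 2.57 for Bmp4. The cause was not tested.

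Counts over all genes moved more. Genotype in mTEC called 1054 genes, and between 0 and 1782 under other settings, between 0 and 2377 without a library. The subset in Aβ0/0 called 878, and between 168 and 2042, the subset in WT 4997, and between 2760 and 7572, genotype in cTEC 3, and between 0 and 61, and the interaction 2, and between 0 and 765. Counting error bears most on Dll4, Cd83, Enpep and Bmp4 in Aβ0/0 mTEC, where single libraries held as few as 4 counts at totals of 24897011 to 31698631.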
